A study of Mus musculus with 3 samples.

Results

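The broadest intervals of H3K27 acetylation in wild-type MIN6 cells were followed in the peak lists of clones labelled as heterozygous or homozygous knockouts of Arid1a. An interval is a stretch of genome that the peak caller reported as enriched, and a broad interval was a distinct interval of the wild-type list of 1500 bp or more on chromosomes 1 to 19 and X. The members were thus chosen by their measured width in wild type, and their widths are a description. The rule gave 1147 of the 41457 distinct wild-type intervals (2.77%), which held 1.98 of 25.04 Mb of wild-type acetylated sequence (7.92%). The 3 lists of the series together held 107067 distinct intervals on these chromosomes. Coordinates are on mm10. For each broad interval, coverage is the percentage of its bases that lay inside any peak of the heterozygous or of the homozygous list.

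H3K27ac was profiled by chromatin immunoprecipitation and sequencing in MIN6, a mouse insulinoma line that makes insulin and serves as a beta cell model. MIN6 cells had first been given Cas9 by lentivirus with blasticidin selection and then a lentiviral guide RNA to Arid1a with puromycin selection. Colonies grown from single cells were assigned by PCR genotypes and Western blots to wild type, heterozygous ARID1A KO and homozygous ARID1A KO. This description does not set the wild-type cells apart, but their label gives the genotype only. Each genotype was represented by 1 library, and nothing in the labels says that a genotype was more than 1 clone, so that genotype and clone cannot be told apart and no difference below has a replicate check or a p-value. The wild-type peak names carry a tag, GAL4, which the labels do not explain, so which guide RNA these cells received is not settled here.

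Acetylation of this lysine of histone H3 is placed by the acetyltransferases CBP and p300 at active promoters and enhancers, is removed by histone deacetylases and is bound by bromodomain proteins. Wide stretches of it tend to lie over CpG-rich promoters and over the clustered enhancers of genes that define a cell type. ARID1A is a DNA-binding subunit of the canonical BAF form of SWI/SNF, a remodelling complex that moves nucleosomes and opens enhancers and promoters.

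The promoters that lay in broad intervals were mostly rich in CpG, and 6 are printed here because their whole intervals span the outcomes that follow: covered more by homozygous than by heterozygous peaks (Pcsk1, Gnao1), covered by both (Brd2, Sos2), covered by heterozygous peaks alone (Arhgef2) and covered by neither (Pde5a). Each run is the 250 bases before a start site, 5′ to 3′ on the strand of the gene, from RefSeq on GRCm38.p6, the assembly of mm10. Arhgef2 and Brd2 have other start sites as well. The run printed for each lies before the most downstream site, so it also lies downstream of another start site of its gene. Capitals mark the CpG dinucleotides.
Pcsk1 promoter, chr13:75089607-75089856, plus strand: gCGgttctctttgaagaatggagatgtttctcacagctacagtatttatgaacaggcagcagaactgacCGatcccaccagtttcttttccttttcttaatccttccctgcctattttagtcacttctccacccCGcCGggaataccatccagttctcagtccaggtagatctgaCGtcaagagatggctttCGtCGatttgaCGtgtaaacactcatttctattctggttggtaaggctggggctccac
Gnao1 promoter, chr8:93810588-93810837, plus strand: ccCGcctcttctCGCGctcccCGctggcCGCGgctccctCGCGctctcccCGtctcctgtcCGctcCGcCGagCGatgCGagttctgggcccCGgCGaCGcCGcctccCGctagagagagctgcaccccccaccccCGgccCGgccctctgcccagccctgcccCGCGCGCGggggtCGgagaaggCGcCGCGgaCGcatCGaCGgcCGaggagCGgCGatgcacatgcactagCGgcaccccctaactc
Brd2 promoter, chr17:34119901-34120150, minus strand: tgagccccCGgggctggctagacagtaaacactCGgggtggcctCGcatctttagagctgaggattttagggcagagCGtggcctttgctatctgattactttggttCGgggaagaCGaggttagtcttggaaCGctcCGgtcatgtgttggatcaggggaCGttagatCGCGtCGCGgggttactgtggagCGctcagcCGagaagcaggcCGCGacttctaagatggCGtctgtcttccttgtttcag
Sos2 promoter, chr12:69681853-69682102, minus strand: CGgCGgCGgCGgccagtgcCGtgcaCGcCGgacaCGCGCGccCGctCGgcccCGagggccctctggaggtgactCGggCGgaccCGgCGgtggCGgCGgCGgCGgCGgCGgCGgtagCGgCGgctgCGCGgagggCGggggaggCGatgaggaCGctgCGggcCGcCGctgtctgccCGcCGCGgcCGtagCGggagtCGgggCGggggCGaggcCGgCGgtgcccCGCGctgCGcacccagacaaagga
Arhgef2 promoter, chr3:88621221-88621470, plus strand: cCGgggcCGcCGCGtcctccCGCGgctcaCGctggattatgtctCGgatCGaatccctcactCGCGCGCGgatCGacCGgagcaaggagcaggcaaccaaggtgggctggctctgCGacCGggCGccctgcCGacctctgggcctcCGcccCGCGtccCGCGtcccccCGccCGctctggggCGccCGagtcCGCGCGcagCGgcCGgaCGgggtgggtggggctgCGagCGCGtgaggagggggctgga
Pde5a promoter, chr3:122728908-122729157, plus strand: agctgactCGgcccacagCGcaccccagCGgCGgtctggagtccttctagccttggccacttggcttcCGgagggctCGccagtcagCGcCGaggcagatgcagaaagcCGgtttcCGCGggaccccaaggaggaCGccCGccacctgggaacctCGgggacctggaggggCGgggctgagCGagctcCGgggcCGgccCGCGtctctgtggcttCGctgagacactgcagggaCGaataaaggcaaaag

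The CpG count ran from 8 in the Pcsk1 run to 47 in that of Sos2, with 18 for Brd2, 22 for Pde5a, 36 for Gnao1 and 37 for Arhgef2. All 250 bases lay inside the broad interval for Pcsk1, Brd2, Sos2 and Arhgef2, and 222 and 121 of them did for Gnao1 and Pde5a, whose start sites were nevertheless inside. The printed runs themselves did not always follow their interval. Of the Pcsk1 run 207 bases lay in heterozygous and 102 in homozygous peaks, which were split there, and of the Gnao1 run 223 and 215. The Brd2 and Sos2 runs lay wholly in peaks of both knockouts, that of Arhgef2 in heterozygous peaks only and that of Pde5a in none. The 300 bp window of Pcsk1, which adds the 50 bases after the start site, held 1 match to the cyclic AMP response element TGACGTCA, a motif found in 2.26% of all start site windows. The Sos2 window held 3 matches to the GC box GGGCGG bound by SP and KLF factors, a motif in 46.7% of all windows.

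Broad intervals were 1500 to 4322 bp wide with a median of 1659 bp, and 394 of them were under 1600 bp. Only 131 reached 2000 bp, 10 reached 2500 bp and 2 reached 3000 bp. The authors' fold enrichment at the summit, which compares it with the local background of the same library, had a median of 6.5 against 5.67 over all wild-type intervals, while the −log10 q had a median of 53.3 against 19.003. The intervals just inside the threshold were at Cdk17 and Vdac2 (1500 bp) and at Synrg, Gmpr and Smchd1 (1501 bp), and those just outside were at Scamp1, Nckap1, Rbm12b1 and Arpin (1499 bp) and at Sdk2 (1498 bp). Coverage of the 5 inside ran from 58.0% to 96.5% in heterozygous and from 77.3% to 100% in homozygous peaks. Coverage of the 5 outside ran from 16.8% to 94.9% and from 67.7% to 99.3%.

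Peaks of this width were found in all 3 lists but in different numbers. Intervals of 1500 bp or more numbered 378 in the heterozygous list (1.21% of its intervals) and 802 in the homozygous list (2.34%), against 1147 in wild type. Depth differed as well: the sources used here do not give read totals, but the reads stacked at each summit (the pile-up) and the local background could be recovered from the deposited fold and p-value of a peak. The lowest background was 2.17 reads in wild type and 1.73 in each knockout library. The median summit pile-up of peaks of at least 1500 bp was 125 reads in wild type, against 49 over all wild-type peaks, and 109.5 and 149 in the heterozygous and homozygous lists. Less acetylation and fewer reads cannot be told apart in the coverage values below.

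Most beta cell markers had peaks in all 3 lists, and markers of other cell types had them in part or not at all. Of 12 beta cell markers, 11 had a wild-type peak within 1 kb, 10 a heterozygous and 12 a homozygous one, and 4 of them (Ins2, Iapp, Neurod1, Slc30a8) had a broad interval. Ucn3 had no wild-type or heterozygous peak and Pdx1 no heterozygous one. The delta, PP, epsilon and duct markers had no peak in any list. Among alpha markers, Irx2 had peaks in all lists and Irx1 had 1 in wild type alone. Gcg, the glucagon gene, was without a peak in wild type and had 1 in each knockout. Among acinar markers only Bhlha15 had a peak, in all lists, and among mesenchymal markers only Twist1, in wild type alone. Of 4 immune and endothelial markers, Ptprc, Cd68 and Pecam1 had wild-type peaks, and the broad interval counted for Cd68, which is also near Mpdu1, had only 199 bp within 1 kb of Cd68.

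Most broad intervals were touched by a peak in both knockouts, for the most part over less than their whole width. In the heterozygous list coverage had a median of 78.6% (quartiles 59.1% and 87.9%), 21 intervals were covered in full and 86 were not touched by any peak. In the homozygous list the median was 85.6% (67.4% and 94.4%), with 76 covered in full and 84 untouched. Over all wild-type intervals, 8.08% and 13.8% were covered in full and 41.8% and 38.4% were untouched in the heterozygous and homozygous lists. Untouched intervals made up a smaller share of broad than of all wild-type intervals, and so did those covered in full. Width chose the members, and a wider interval is more easily touched and less easily covered in full. Both orders thus follow in part from the rule. Partial coverage does so as well, since the intervals were chosen as wide in wild type and bases outside them are not counted. A touching peak was wider than the interval itself at 59 intervals in the heterozygous and 173 in the homozygous list.

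Intervals with less than 50% of their bases covered made up the low end. They were 204 in the heterozygous list (17.8%, Wilson 95% interval 15.7% to 20.1%), against 47.3% of all wild-type intervals. They were 184 in the homozygous list (16.0%, 14.03% to 18.3%), against 43.1% of all. Both counts were read against the same wild-type intervals: 101 intervals were under 50% in both lists, 103 in the heterozygous list alone, 83 in the homozygous list alone and 860 in neither. At the other end, 228 were covered by 90% or more in the heterozygous and 441 in the homozygous list.

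**Figure D1:**
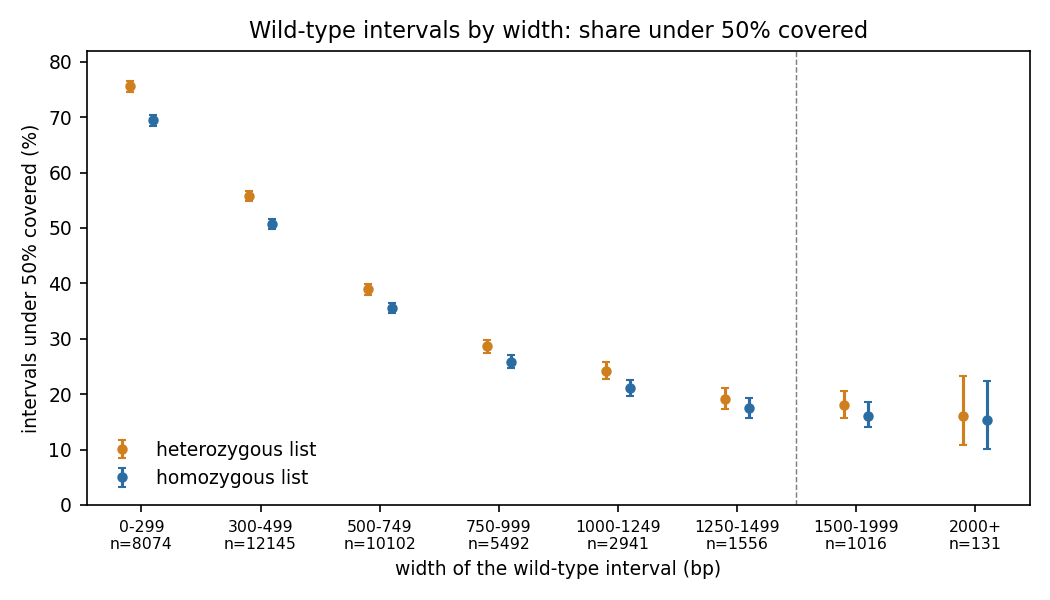
Share of wild-type intervals with under 50% of their bases inside heterozygous (orange) or homozygous (blue) peaks, by width class of the wild-type interval in bp. Points are shares in percent and bars are Wilson 95% intervals, which cover counting error only; the share falls from 75.6% and 69.4% under 300 bp to 18.01% and 16.1% from 1500 to under 2000 bp, right of the dashed line.

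The low share under 50% among broad intervals was the end of a gradient in width and not a step at the threshold. Under 300 bp, 75.6% of wild-type intervals were under 50% covered by heterozygous and 69.4% by homozygous peaks. In the class just below the threshold the shares were 19.2% and 17.4%, from 1500 to under 2000 bp 18.01% and 16.1%, and at 2000 bp or more 16.0% and 15.3%. The −log10 q rose along the same classes, from a median of 8.34 under 300 bp to 53.3 from 1500 to under 2000 bp, and its part in the gradient was not tested.

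In touched intervals the uncovered bases lay mostly at the outer edges. Of these bases, 82.8% (380.5 kb against 79.2 kb between peaks) lay at the edges in the heterozygous list. In the homozygous list 86.2% did (307.6 kb against 49.3 kb). Where an interval met only 1 peak, every uncovered base counts as edge, so both shares follow in part from this definition. Untouched intervals, left out of these shares, held a further 142.7 kb in the heterozygous and 141.1 kb in the homozygous list. The wild-type summit lay inside a heterozygous peak in 1030 broad intervals (89.8%, against 56.0% of all wild-type intervals) and inside a homozygous one in 1038 (90.5%, against 59.5%). Among touched intervals, 692 met 1 heterozygous peak, 330 met 2 and 39 met 3 or more, while 786, 258 and 19 met as many homozygous peaks. The widest touching peak had a median width of 1214 bp in the heterozygous and 1399 bp in the homozygous list, and it was itself 1500 bp or more at 230 and 419 of the broad intervals.

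**Figure D2:**
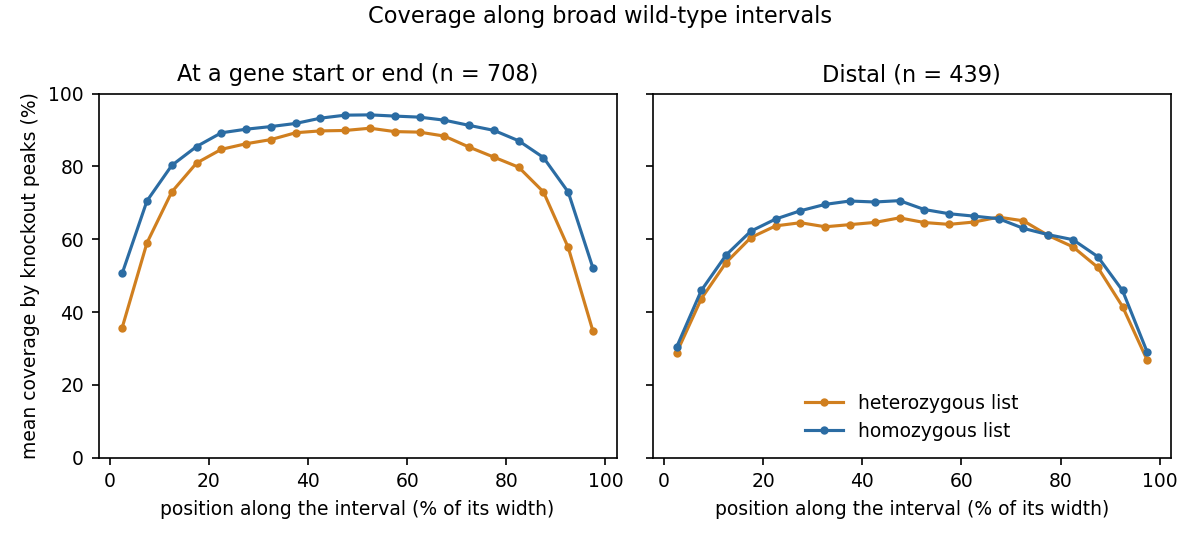
Mean coverage in percent by heterozygous (orange) and homozygous (blue) peaks in 20 equal bins along broad wild-type intervals, in chromosome orientation, for intervals at a gene start or end (left, n = 708) and distal ones (right, n = 439). Coverage is highest near the middle and falls at both ends, and at gene starts or ends the homozygous curve lies above the heterozygous one in every bin.

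Along intervals at a gene start or end, mean coverage by heterozygous peaks went from 35.8% in the first of 20 bins to 89.9% in the 10th and 34.7% in the last. The same bins gave 50.6%, 94.1% and 52.1% in the homozygous list. In distal intervals they gave 28.8%, 65.9% and 26.7% for heterozygous and 30.3%, 70.6% and 28.9% for homozygous peaks. The gap between the lists at the outer bins was thus wider at gene starts and ends than in distal intervals.

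Where a broad interval lay in relation to genes went with how much of it was covered. A start site from the promoter table lay within 1 kb of 584 broad intervals (50.9%), and for genes without an entry in that table an end of the gene lay within 1 kb of a further 124 (10.8%). Together these were 708 intervals (61.7%, 58.9% to 64.5%), against 38% of all wild-type intervals. The remaining 439 were distal, 212 of them inside a gene and 227 intergenic.

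Intervals at a gene start or end were mostly well covered. Their coverage had a median of 81.9% in the heterozygous and 89.3% in the homozygous list, and 55 (7.77%) and 37 (5.23%) were under 50%. Distal intervals had medians of 67.3% and 71.0%, and 149 (33.9%, 29.7% to 38.5%) and 147 (33.5%, 29.2% to 38.0%) were under 50%. Of the untouched intervals, 74 of 86 in the heterozygous and 75 of 84 in the homozygous list were distal. The same order was present in narrower intervals, with 19.03% and 16.4% of those at gene starts or ends and 65.4% and 60.2% of distal ones under 50%.

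Distal intervals were also the weaker ones, with a median −log10 q of 41.2 against 62.4 at gene starts or ends, so the comparison was repeated within 4 equal groups by −log10 q. In the lowest group 32.7% of intervals at gene starts or ends and 53.0% of distal ones were under 50% covered by heterozygous peaks, and 20.2% and 46.4% by homozygous peaks. In the second group the heterozygous shares were 7.27% and 29.8% and the homozygous shares 7.27% and 33.1%. The shares were thus lower at higher −log10 q in both places, in the same order. In the third group they were 3.16% and 14.4%, and 1.58% and 19.6%. In the highest they were 1.20% and 5.26%, and 0.402% and 7.89%, with only 38 distal intervals. Distal intervals were the less covered in all 4 groups of both lists.

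**Figure D3:**
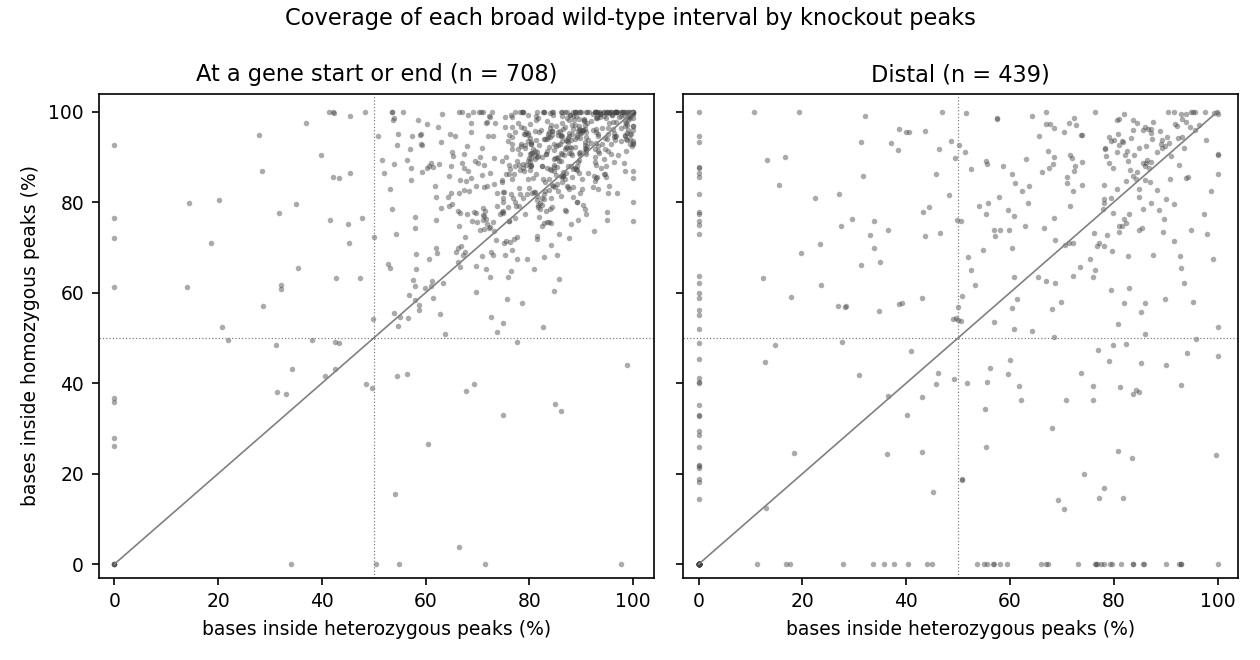
Each point is 1 broad wild-type interval, placed by the percentage of its bases inside heterozygous (x axis) and homozygous (y axis) peaks, for intervals at a gene start or end (left, n = 708) and distal ones (right, n = 439). The diagonal marks equal coverage and the dotted lines 50%; intervals at gene starts or ends gather at the upper right, above the diagonal, and points along the axes at 0% are mostly distal.

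Read side by side, the homozygous list covered more of a broad interval than the heterozygous list at 732 of 1147 (63.8%), and less at 371. Equal coverage was found at 44, of which 41 were at 0% in both. Of all wild-type intervals 41.6% were covered more by homozygous peaks. Among intervals touched by either knockout the share was 66.2% of 1106 broad ones (Wilson 95% interval 63.3% to 68.9%) and 59.1% of all. The median difference was 4.63 percentage points. Differences of more than 50 points were found in both directions, at 54 intervals with higher homozygous and 46 with higher heterozygous coverage.

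Because the members were chosen for width in wild type, intervals chosen for width in each knockout were read against the wild-type list in the same way. Of 378 broad heterozygous intervals, 28 (7.41%, 5.17% to 10.5%) were under 50% covered by wild-type peaks, against 23% of all heterozygous intervals. Of 802 broad homozygous intervals, 51 (6.36%, 4.87% to 8.26%) were, against 28.2% of all homozygous intervals. The median coverage by wild-type peaks was 95.6% and 92.5%. Most broad knockout intervals thus lay on wild-type peaks, and both shares under 50% were lower than those of broad wild-type intervals in the knockout lists. The wild-type list was also the longest of the lists and held the most bases, and the part of list size in this order was not tested. Each genotype had 1 library and the Wilson intervals cover counting error only, so these shares do not test a difference between genotypes.

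**Figure D4:**
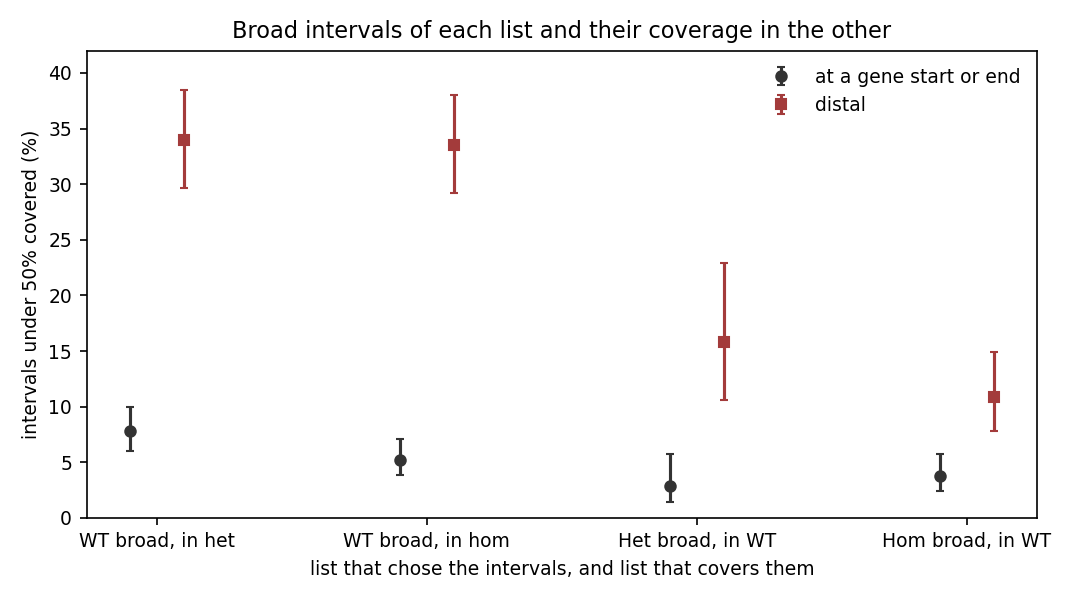
Percentage of broad intervals with under 50% of their bases covered in the other list, for broad wild-type intervals in heterozygous and homozygous peaks and for broad heterozygous and homozygous intervals in wild-type peaks. Circles are intervals at a gene start or end and squares distal ones, with Wilson 95% intervals for counting error; distal intervals sit higher in all 4 readings, at 33.9%, 33.5%, 15.8% and 10.8%.

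The order of place held in the reverse reading too. Of broad heterozygous intervals, 2.86% at gene starts or ends and 15.8% of distal ones were under 50% covered in wild type. Of broad homozygous intervals, 3.75% and 10.8% were. With the 378 widest of each list, which removes the difference in number, 56 wild-type intervals (14.8%) were under 50% covered by heterozygous and 52 (13.8%) by homozygous peaks. In reverse, 28 heterozygous (7.41%) and 27 homozygous intervals (7.14%) were under 50% in wild type. Between the knockouts, 52 of the heterozygous (13.8%) were under 50% in homozygous peaks and 60 of the homozygous (15.9%) in heterozygous peaks. The shares for wild-type intervals lay in the range of those between the knockouts, and the lowest shares were those of knockout intervals in the wild-type list, the longest of the lists.

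Of the 17 gene lists, that of the insulin granule and its release had the highest share of genes with a broad interval. Of its 35 genes, 9 (25.7%) had a broad wild-type interval within 1 kb, against 4.91% of all protein-coding genes (1063 of 21631) and 8.07% of the genes with any wild-type interval within 1 kb. These 9 genes carried 10 intervals of 1507 to 2772 bp. At 9 of the 10 the homozygous list covered more than the heterozygous list (63.8% over all broad intervals), with medians of 95.04% and 62.1% and a median difference of 34.6 points, against 4.63 points over all broad intervals. Coverage by homozygous peaks was 90% or more at 8 of the 10, and by heterozygous peaks at 1.

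The hormones themselves were among them. At Ins2, which encodes the ancestral of the paired mouse insulins, the 1588 bp interval (chr7:142678023-142679610) was 68.1% covered by heterozygous and 99.2% by homozygous peaks. At Iapp, which encodes the amyloid polypeptide released with insulin, an interval of 2441 bp (chr6:142298487-142300927), also within 1 kb of Slco1a5, was covered by 80.1% and 97.3%. At both genes 1 homozygous peak spanned stretches that heterozygous peaks left uncovered.

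The enzymes that mature the hormones gave the same order, apart from Pam. Pcsk1 and Pcsk2 encode the convertases that cut proinsulin, and the Pcsk1 promoter printed above lies in its interval. The 2065 bp at Pcsk1 (chr13:75088759-75090823) was covered by 54.5% and 92.6% in heterozygous and homozygous peaks. The 1773 bp at Pcsk2 (chr2:143546207-143547979) was covered by 58.6% and 98.1%. Pam, which amidates peptide hormones, ran the other way, with 97.4% of 1513 bp in heterozygous and 77.5% in homozygous peaks.

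The granule and glucose-handling genes included some of the widest intervals of the genome. Slc30a8 encodes the granule zinc transporter ZnT8, and its 2772 bp (chr15:52295690-52298461) met 4 separate heterozygous peaks of 201 to 599 bp, which covered 54.7%, and 2 homozygous peaks, which covered 94.99%. G6pc2 encodes the islet glucose-6-phosphatase catalytic subunit, and its 2750 bp (chr2:69220037-69222786) was covered by 55.7% in heterozygous peaks and in full by 1 homozygous peak. Ptprn2, which encodes the granule protein phogrin, had an interval of 1669 bp (chr12:116605765-116607433) inside the gene with no heterozygous peak and 86.5% in homozygous peaks. Rab27a, a granule docking GTPase, had intervals of 1507 bp at a start site (83.5% and 95.1%) and 1568 bp inside the gene (65.6% and 94.6%).

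**Figure D5:**
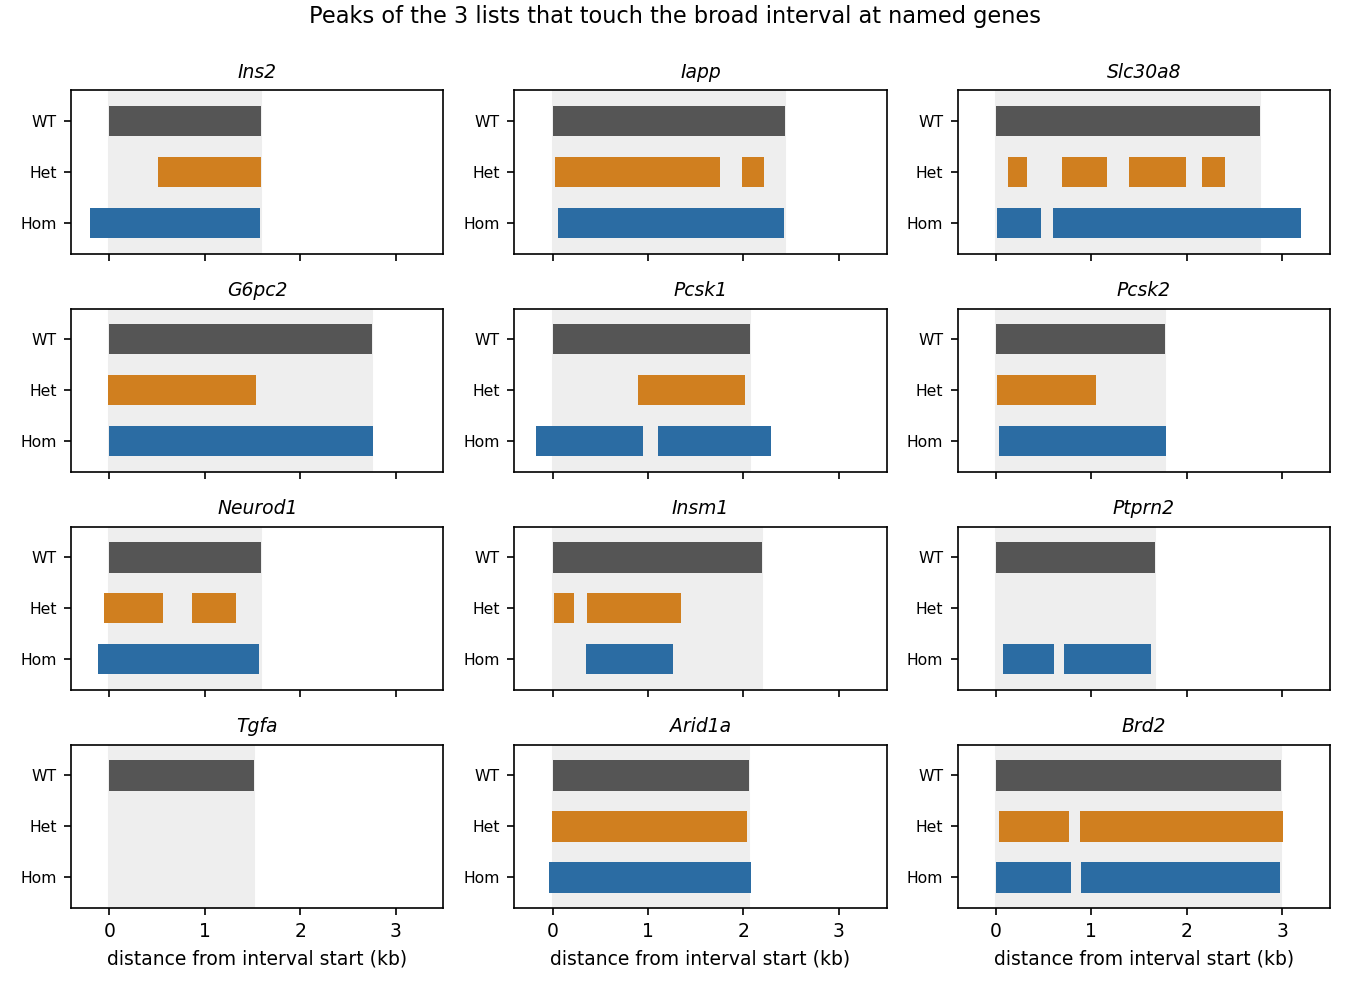
Peaks of the wild-type (grey), heterozygous (orange) and homozygous (blue) lists that touch the broad interval at 12 genes, drawn to scale in kb from the start of the interval in chromosome orientation; the shaded band is the wild-type interval. At Slc30a8 4 short heterozygous peaks stand against 2 homozygous ones, at G6pc2 the heterozygous peak ends at 1532 bp of 2750 bp, at Ptprn2 only homozygous peaks and at Tgfa neither knockout has a peak, at Arid1a each list has 1 peak of nearly the same extent, and at Brd2 each knockout has 2 peaks where wild type has 1.

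The secretory intervals sat on a high local background. The recovered wild-type background at the summit had a median of 39.5 reads at the 10 secretory intervals against 17.6 over all broad intervals, and 9 of the 10 had a fold enrichment under the median of all wild-type intervals (range 2.64 to 6.98). In the peaks that touched them the recovered background had a median of 26.8 reads for heterozygous and 34.9 for homozygous peaks. Their summit pile-ups had medians of 68 and 112.5 reads, against 138 in wild type. The heterozygous medians leave out Ptprn2, which had no heterozygous peak, and so rest on 9 of the 10 intervals. Its homozygous peak had a recovered background of 6.12 and a pile-up of 56 reads. Among the 212 broad intervals with a fold under 5, the homozygous list covered more at 65.1%, with a median difference of 6.52 points. How the caller's local background set the ends of these intervals was not tested.

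Of 22 beta cell transcription factor genes, 21 had a wild-type interval within 1 kb and 2 (9.09%) had a broad one, near the 8.07% of genes with any wild-type interval. Neurod1, a bHLH activator of the insulin gene, had 1588 bp (chr2:79453748-79455335) covered by 64.3% in heterozygous and 99.1% in homozygous peaks. Insm1, a zinc-finger factor of endocrine cells, had 2195 bp covered by 54.5% and 41.5%, so that its order was the reverse.

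Of 26 SWI/SNF subunit genes, 6 (23.1%) had a broad interval, the next highest share, against 8.07% of genes with any wild-type interval. At Arid1a itself the 2056 bp interval (chr4:133751881-133753936) was covered by 99.3% in heterozygous and 100% in homozygous peaks, which says nothing about the edit, since the mark at the start of a gene does not report on its coding sequence. Arid2, the ARID subunit of the PBAF form, had 1948 bp, also within 1 kb of Gm38469, covered by 72.7% and 100%. Arid1b, which encodes the paralog that takes the place of ARID1A in other BAF complexes, had an interval of 1692 bp (chr17:5261130-5262821) inside the gene that no knockout peak touched. The interval of Pbrm1, another PBAF subunit, also within 1 kb of Gnl3, was covered by 87.9% and 75.3%. That of Bicra, a subunit of the GBAF form, was covered by 100% and 80.0%, and that of Bcl7a by 90.8% and 95.5%. The homozygous list covered more at 3 of the 6.

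Genes that read acetylation or respond early to signals were covered for the most part. Brd2 encodes a protein whose bromodomains bind acetylated histones. The 2986 bp at Brd2 (chr17:34119637-34122622), also within 1 kb of H2-DMa, was the third widest of all. It was covered by 95.2% and 96.5%. Of 29 immediate early genes, 3 (10.3%) had a broad interval, near the 8.07% of genes with any wild-type interval. They were Ier5 (98.9% and 93.6%), Dusp6, a phosphatase of ERK (96.4% and 94.6%), and Fosb, an AP-1 subunit (69.8% and 65.8%). Heterozygous coverage was the higher at all 3.

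In the EGF pathway, which the title of the study names, 1 of 11 ligands (9.09%) and 2 of 17 receptors and proximal regulators (11.8%) had a broad interval. Of all protein-coding genes 4.91% had one, and of genes with any wild-type interval 8.07%. Tgfa encodes a ligand of the EGF receptor, and its 1512 bp interval (chr6:86205726-86207237) inside the gene, with a fold of 8.88, was not touched by any knockout peak. Sos1 and Sos2 encode the exchange factors that couple receptors to RAS, and their intervals were covered by 82.9% and 80.8% and by 92.6% and 100%. Of the 11 ligands, 8 had some wild-type interval within 1 kb.

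Cell cycle genes had 3 of 25 (12%), against 8.07% of genes with any wild-type interval. Cdkn2c, which encodes a CDK inhibitor, was covered by 72.1% and 94.5%, Rb1, the retinoblastoma gene, by 85.9% and 92.8%, and Cdk1, the mitotic kinase, by 60.7% and 67.5%. Homozygous coverage was the higher at all 3. Among housekeeping genes Ubb was covered by 72.4% and 63.4%. Mesenchymal genes had 2 of 14, Zeb1 (79.7% and 95.2%) and Cdh2 (75.8% and 93.5%). Cd68 (94.5% and 94.2%) was the only one of 15 immune and endothelial genes. No broad interval lay at any of the 25 genes of the unfolded protein response, 10 alpha cell, 8 delta, PP and epsilon cell, 13 acinar and 12 duct markers or 18 genes normally silent in beta cells. All 25 genes of the unfolded protein response had some wild-type interval within 1 kb, as had 7 of the alpha cell and 9 of the normally silent genes. Of all genes 4.91% had a broad interval, and of genes with any wild-type interval 8.07%. In single lists of 8 to 25 genes either share gives few genes, so the counts of 0 are not read further.

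The widest interval and the next widest lay far from protein-coding genes. Intervals without a protein-coding gene within 100 kb are called gene-free below. Apart from microRNA hairpins, genes that do not code for protein were not looked up. The first, of 4322 bp at chr17:39843038-39847359, and the second, of 3929 bp at chr14:19415715-19419643, had no protein-coding gene within 100 kb, folds of 2.51 and 2.83 and the high recovered backgrounds of 96.3 and 139 reads. Both were covered in the knockouts, by 83.9% and 90.4% and by 99.9% and 100%. Whether repeated sequence added to the reads at either was not tested, so neither is read as an acetylated element. The other 13 of the 15 widest lay between 2422 and 2986 bp, and 12 of them were at genes.

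Several of these genes belong to signalling and transport. Slc29a4, which encodes a monoamine transporter, had 2776 bp inside the gene, 83.5% covered by heterozygous but only 23.6% by homozygous peaks. Gnao1, which encodes the G protein subunit Gαo and whose promoter is printed above, had the opposite, with 42.3% of 2682 bp (chr8:93810616-93813297) in 2 heterozygous peaks and 99.7% in 1 homozygous peak. Prkar1a, the regulatory subunit of protein kinase A, had 59.4% of 2637 bp in 4 heterozygous peaks and 92.5% in 2 homozygous peaks.

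At other wide intervals coverage by the knockouts differed less. Msl1, a subunit of a histone H4 acetyltransferase complex, had 82.9% and 82.4% of 2767 bp covered. Bicral, which encodes the paralog of the GBAF subunit BICRA, had 96.5% and 97.1% of 2575 bp. The interval shared by Bfsp1 and Dstn had 84.3% and 95.8%, that of Mboat7 and Tsen34 89.2% and 80.0%, and that of Tmem178b 65.9% and 69.0%. The interval of 2461 bp whose nearest gene was Sqle, a sterol synthesis enzyme 34799 bp away, had 89.8% and 92.4%.

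The widest of the intervals untouched in the heterozygous list were mostly inside or between genes. They were at Rhobtb1 (2278 bp, 21.2% in homozygous peaks), Cradd (2219 bp), near Skap1 (2219 bp, 77.5%), at Myo1d (1874 bp), near Sdk1 (1865 bp, 56.1%), near Mvk (1813 bp), at Pde5a (1791 bp) and at Il12rb2 (1786 bp, 77.8%). Another 2 were gene-free. Cradd, Myo1d, Mvk, Pde5a and both gene-free intervals were untouched in the homozygous list as well. Pde5a encodes the phosphodiesterase of cyclic GMP and was the only one of the 10 at a start site.

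Among the widest intervals untouched in the homozygous list, some were again covered in part by the other knockout. Cradd, Myo1d and the gene-free intervals of the preceding list were among these widest as well. The interval near Gadd45a, a stress-response gene 11060 bp away, had 55.0% of 2160 bp (chr6:67048467-67050626) in heterozygous peaks and none in homozygous ones. The interval nearest to Gmpr, 36795 bp away, was 1937 bp wide and had 76.5%. That nearest to Cand1, 65515 bp away, was 1913 bp wide and had 66.9%. That nearest to Arl4a, 14511 bp away, was 1912 bp wide and had 11.2%. Of the 10, 5 were more than 50% covered by heterozygous peaks.

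The largest differences in favour of heterozygous coverage were intervals with no homozygous peak at all. Tnrc6a, which encodes a partner of Argonaute in microRNA silencing, had 100% of 1617 bp (chr7:123097304-123098920) in a heterozygous peak and 0% in homozygous peaks. Arhgef2, for which the run before its downstream start site is printed above, had 97.6% and 0%, the only one of the 8 at a start site. Whrn, Shisa9, Rftn1, Pde3a and Nav1 had 85.6% to 93.0% inside the gene, and the interval nearest to Klf5, 52474 bp away, had 92.6%. All of these had 0% in homozygous peaks. Pde3a encodes a phosphodiesterase of cyclic AMP.

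In the other direction, the interval near Upk3a had 0% in heterozygous and 100% of 1635 bp (chr15:85011738-85013372) in homozygous peaks. Park7, which encodes a protein that protects from oxidative stress, had 0% and 93.3% inside the gene. Scn3b, a sodium channel subunit, had 0% and 92.7%. Ank, a pyrophosphate transporter, had 0% and 87.8%, and the interval nearest to Mtr, 33243 bp away, had 0% and 87.6%. That of Schip1 and Iqschfp had 10.7% and 100%, and a gene-free interval on chromosome 4 had 0% and 94.6%. The eighth was that of Ptprn2, described above.

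Clusters of broad intervals were uncommon. Only 18 pairs of neighbouring broad intervals lay within 10 kb of each other, and the closest pair was 4458 bp apart. Of the 1063 genes with a broad interval within 1 kb, 41 had 2 or more. Gse1, Kcnj6 and Maml3 had 3 each and were picked after their values were seen. At Gse1, which encodes a protein associated with the LSD1 complex, intervals of 2000, 2130 and 2228 bp were covered by 57.0% to 84.8% in heterozygous and 73.9% to 82.8% in homozygous peaks. At Maml3, a Notch coactivator, 1 of the 3 was untouched in heterozygous and 18.8% covered in homozygous peaks, while the other two had 86.0% and 87.9%, and 89.6% and 73.5%. Intervals of 1 gene can thus differ widely in coverage.

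Reach around a start site follows in part from the width that chose the members, so it is given as a description. Of 520 broad intervals that held a start site, 69 (13.3%) held start sites on both strands, against 4.70% of narrower intervals with a start site. In the other 451 the interval reached a median of 688 bp upstream and 994 bp downstream, and 315 (69.8%) reached farther downstream. In narrower intervals the medians were 146 and 622 bp, and 81.1% reached farther downstream. Upstream bases were covered by 75.9% in heterozygous and 81.4% in homozygous peaks, and downstream bases by 78.9% and 86.3%.

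Promoters inside broad intervals were the richest in CpG. Their 300 bp windows had a median observed over expected CpG ratio of 0.84 and 65.3% GC, against 0.80 and 62.0% for windows in narrower intervals and 0.37 and 53.7% for those outside wild-type intervals. Motifs were searched on both strands as exact letters, and a match describes the letters only. The GC box GGGCGG was in 69.2% of windows in broad intervals, 65.6% of those in narrower ones and 38.2% of those outside. The CCAAT box (CCAAT) was in 21.5%, 33.5% and 41.3%, the TATA box (TATAAA) in 4.402%, 5.57% and 15.8%, and the ETS motif CCGGAAG in 18.02%, 21.8% and 7.48%. Base composition differs between these sets and its part in the motif shares was not tested.

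Coverage went with the CpG content of the promoter. In 42 broad intervals whose start site window had a ratio under 0.5, the median coverage was 67.8% in heterozygous and 82.1% in homozygous peaks. In the 140 with a ratio of 1 or more it was 84.6% and 91.1%. Narrower intervals gave 75.1% and 83.4% at the low end and 87.3% and 92.9% at the high end, so the order was not particular to broad intervals. The median −log10 q rose as well, from 53.8 to 71.7 across the broad classes.

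MicroRNA genes lay in a few broad intervals, and 3 mature sequences are printed because their families are known in beta cells and epithelia; they were picked after their values were seen. Capitals mark the seed, bases 2 to 8 from the 5′ end, and sequences are from RefSeq on GRCm38.p6.
mmu-miR-141-3p, chr6:124717917-124717938, minus strand: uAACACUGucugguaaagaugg
mmu-miR-200c-3p, chr6:124718324-124718346, minus strand: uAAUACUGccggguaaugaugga
mmu-let-7i-5p, chr10:122985698-122985719, minus strand: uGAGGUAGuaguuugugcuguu

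Of 1005 hairpins in the table, 10 overlapped a broad interval, in 8 intervals. miR-141 and miR-200c share 1 interval of 1707 bp at Phb2, covered by 87.2% in heterozygous and 96.2% in homozygous peaks. No 2 of the 3 seeds are the same. The miR-200 family is known to repress Zeb1, which has a broad interval of its own. let-7i lies in an interval of 1586 bp nearest to Mon2, covered by 91.9% and 97.4%. A hairpin in a broad interval is a matter of position, and its expression was not measured.

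Median coverage varied between chromosomes. It ran from 65.6% (chromosome 14) to 83.9% (chromosome 9) in the heterozygous and from 76.8% (chromosome 10) to 90.5% (chromosome 17) in the homozygous list. Chromosome 14 held 26 broad intervals before 8 Mb, a stretch of multicopy predicted genes, and 47 intervals had no protein-coding gene within 100 kb. Without both sets, 1074 intervals remained, and 15.7% and 14.5% of them were under 50% covered by heterozygous and homozygous peaks, an alternative chosen after the data were seen. Peaks in multicopy sequence depend on how repeated reads were placed, which the sources used here do not give.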

How the data were processed

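H3K27ac was measured in 3 MIN6 libraries, 1 per genotype. The authors called peaks for each library with MACS2 on mm10 after bcl2fastq, per the submitters' processing notes. The sources used here do not give versions, the aligner, the control or the calling threshold. The deposited lists give each peak's position, the authors' score (the −log10 q times 10, without decimals), the deposited fold enrichment over local background (a ratio within its library), the deposited −log10 p and −log10 q, and the summit. Fold and −log10 q served only to describe or split peaks within a list. Summit pile-up and background were solved from the deposited fold and −log10 p, with a Poisson tail for p and a tolerance of 0.001.

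Intervals listed with several summits were counted once. Coverage was computed in Python 3.11.15 with numpy 2.4.6 and pandas 2.3.3, tested on simulated intervals, and equalled that of bedtools 2.31.1 at 1147 of 1147 broad intervals for each knockout. Wilson 95% intervals (scipy 1.17.1) cover counting error only. Figures used matplotlib 3.10.9. RefSeq tables of GRCm38.p6 gave 21631 protein-coding genes and 21045 start sites of 17274 genes, none of them on chromosome 18. Where a gene had no start site in the table, both of its ends were used. The tables give no exons, so exons, introns and UTRs are not told apart, and nearness does not show regulation. Distal sequences were not analysed here, and a few genes of the lists are not reported here.

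The members and the 17 gene lists (330 entries, 326 distinct genes, all matched) were chosen with earlier results of these data known. Named genes were those at the 15 widest intervals, the 10 least covered in each knockout list (ties to the wider), the 8 largest differences in each direction, the 5 on either side of the threshold, and all genes of the lists with a broad interval. Alternatives changed the width minimum, the coverage cutoff, the peak threshold, the list length, bridging of peaks, and the distances to genes. No test across samples was possible.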

Additional observations from a re-analysis of the deposited data

How the results depend on the processing

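Over the alternatives tried, 26 values stayed within their spread and 14 moved. The share of broad intervals under the coverage cutoff moved by construction with that cutoff: for heterozygous peaks it was 9.59% at 25%, 43.0% at 75% and 7.498% for any overlap of 1 bp, and for homozygous peaks 9.33%, 32.4% and 7.32%. These cutoffs give no value for the difference between the knockouts. Bridging knockout peaks within 500 bp lowered the share with higher homozygous coverage to 60.2%. With widths of 2000 bp or more, broad homozygous intervals under 50% covered in wild type were 2.63% (2 of 76), intervals at gene starts or ends 54.2%, genes of all lists 8 in place of 33 and secretory genes 4 in place of 9. With the lower width minimum, list genes numbered 66. The share at gene starts or ends was 64.5% within 5 kb and 52.2% where the interval had to cover the site. Where the construction does not show it, the cause was not tested. Peaks with −log10 q of 5 or more, lists of equal length and the set without gene-free intervals and chromosome 14 before 8 Mb moved no share beyond its interval.

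No paired analysis was possible because each genotype had 1 library and the labels carry no replicate numbers, and for the same reason leaving out a library in turn gave no value. The wild-type library had the highest recovered background (2.17 reads against 1.73), and a knockout peak below detection cannot be told apart from an absent one.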

Other observations

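Genes with 2 broad intervals, picked after their values were seen, included several of signalling and of transcription. Irs1, the docking protein of the insulin receptor, had intervals of 1539 and 1615 bp. Abcg1, a sterol transporter, had 1707 and 1585 bp, and Camk2b, a calcium-dependent kinase, had 1509 and 2084 bp. Among regulators of transcription, Bach2 had 1600 and 1685 bp, Bcor 1887 and 1657 bp, Ncoa2 1691 and 1976 bp and Rai1 2094 and 2337 bp. Trio, a guanine nucleotide exchange factor, had 2362 and 2021 bp.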
